A study of Bos taurus with 16 samples.

Results

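Granzymes are serine proteases that cytotoxic lymphocytes store in secretory granules and release onto target cells. Perforin, encoded by PRF1, forms pores that let granzymes into the target, and NKG7 is a membrane protein of the same granules. Granzymes A and K are tryptases that cut after basic residues, whereas granzyme B cuts after aspartate and activates caspases. In the uterus they are best known as products of natural killer and T lymphocytes, while CD14 marks monocytes and macrophages. The question was how transcripts of this killing machinery were distributed between CD14+ cells of the pregnant endometrium and CD14+ cells of the blood. The 7 gene names gzmA, GZMA, GZMB, GZMK, GZMH, PRF1 and NKG7 were searched in the array annotation, with gzmA and GZMA kept apart by letter case because cattle have a granzyme A gene under each name.

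Names in the scanner files gave 6 probes, a reference gene table added 2 and a description that reads granzyme added 1, so that 9 of 21475 probes were followed. They stand for 8 genes by gene identifier, of 20597 gene names on the array. All 9 were among the 16654 probes tested, a set that had to rise well above background in 4 or more of the 8 channels of either tissue. The genes were chosen by the ratio of endometrium to blood in these same samples, some of them being known to be higher in endometrium. Their ratios are therefore a description, and no test of them is given.

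The samples were CD14+ cells sorted by flow cytometry from enzyme-dispersed endometrium and from blood mononuclear cells of 4 pregnant cows collected at slaughter. Animals 1, 2, 3 and 4 were at days 164, 239, 242 and 248 of pregnancy, so that animal and stage cannot be told apart. No group received a treatment, and the labels give neither breed nor age. RNA was amplified, labeled with Cy3 or Cy5 and hybridized to 8 Agilent bovine arrays, 2 for each animal as technical replicates, with the endometrial and the blood RNA of an animal sharing each array. The dyes were swapped between the arrays of animals 1, 2 and 4 but not of animal 3.

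For these arrays the scanner files and the labels disagreed. The scanner's processed signals were put on the scale of the authors' log2 values by rank, so the match is one of rank order. So placed, the values listed for a sample matched its labeled dye, to within 0.001, not in its own scanner file but in the file deposited with the animal's other array. The files were exchanged accordingly, a choice made after the values were seen. Read as attached, the signs of animals 1, 2 and 4 turn, and the mean log2 ratios of the 9 probes lie between -2.94 for gzmA and -0.48 for GZMB. In animal 3, whose dyes were not swapped, both readings give the same ratio.

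The sort marker was checked first, because granzymes are not typical products of CD14+ cells. The log2 intensity of CD14 was 14.24 in the blood cells of animal 1, but 6.30, 7.63 and 6.69 in those of animals 2, 3 and 4. In endometrium it was 12.17, 6.41, 8.14 and 6.82 in animals 1 to 4. CD14 was thus bright in both tissues of animal 1 and dim, although well above background in 8 of 8 channels of each tissue, in the other animals. CD68, a lysosomal protein of macrophages, lay at 12.93, 6.83, 9.03 and 9.94 in endometrium and at 10.97, 6.95, 7.66 and 7.64 in blood. CSF1R, the receptor for macrophage colony-stimulating factor, lay at 14.40, 9.15, 11.27 and 10.95 in endometrium, and in blood it was brightest in animal 1, with 6.64, 8.13 and 6.95 in the others. Whether the preparations labeled CD14+ were alike in the 4 animals was not tested, and in RNA measured in bulk fewer cells of a type and less RNA per cell cannot be told apart.

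The probes are 60 bases long and each was printed in 2 spots on an array. The sequences of gzmA, GZMK, GZMB and GZMH are given, since the name GZMB and the name GZMH belong to the same gene by accession (LOC617313) and their probes could have been near copies. Capitals mark a match to GGNGANTCN, a pattern of codons at the catalytic serine of this protease family, searched on both strands.
gzmA: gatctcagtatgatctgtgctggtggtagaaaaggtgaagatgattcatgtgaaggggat
GZMK: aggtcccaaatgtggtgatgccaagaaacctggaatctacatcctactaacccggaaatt
GZMB: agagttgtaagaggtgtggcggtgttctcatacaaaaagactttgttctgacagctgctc
GZMH: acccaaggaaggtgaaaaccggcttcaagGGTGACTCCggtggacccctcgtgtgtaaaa
The pattern is in 1 of the 9 probes, that of GZMH, and, on either strand, in 1.73% of all 21475 probes. No other probe on the array shared a run of 20 bases with any of the 9 on either strand. Runs of 15 bases were shared by the GZMA probe with 2 probes on the opposite strand. The BDMD1 probe shared such a run with 1 probe on the same strand. The longest run shared between the GZMB and GZMH probes was 5 bases, and the longest between any pair of the 9 was 9 bases. A probe can still bind transcripts of other genes that these letters do not show, so the granzyme B group and GZMA are uncertain as to gene. In the reference gene table (assembly ARS-UCD2.0) GZMA, gzmA and GZMK are neighbors with no gene between them. BDMD1, LOC617313 and LOC508646 lie on another chromosome within a run of protease genes.

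Log2 normalized intensities and log2 ratios of endometrium over blood follow for each gene, as measured from the scanner medians. The mean log2 ratio in the authors' own values is given beside them by name.

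**Figure D1:**
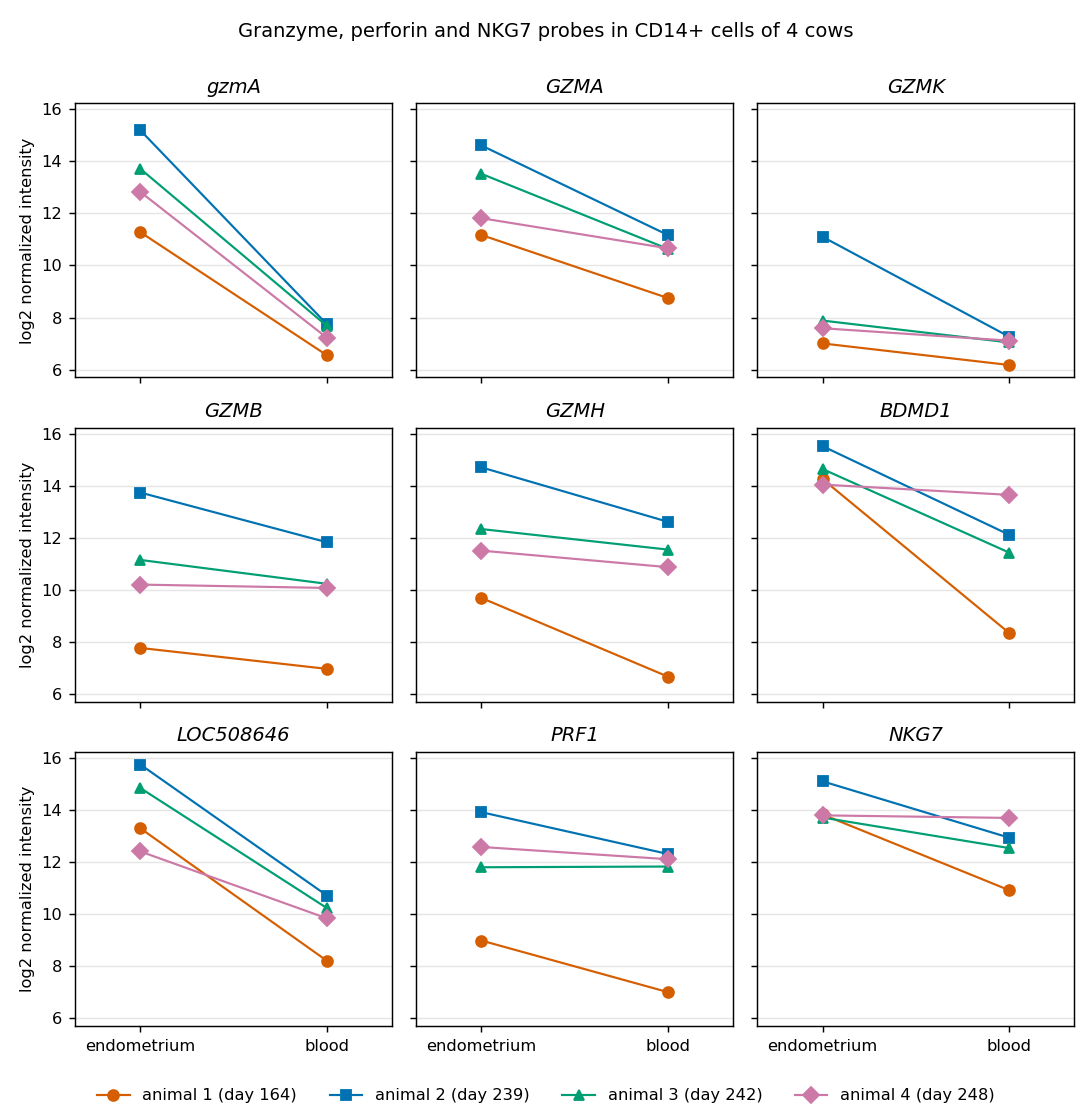
Log2 normalized intensity (y axis) of the 9 probes in CD14+ cells of endometrium and blood, with 1 line for each of 4 animals, mean of 2 arrays. Animal 1 has the lowest blood level in all 9 panels and animal 2 the highest endometrial level in all 9, while gzmA is between 6.55 and 7.74 in the blood of every animal.

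gzmA (NM_001001142), a granzyme A gene, had log2 intensities of 11.28, 15.19, 13.71 and 12.82 in the endometrial cells of animals 1 to 4. In their blood cells it had 6.55, 7.74, 7.67 and 7.22. The tissues were far apart in every animal, and the lowest endometrial value was above the highest blood value. The log2 ratios were 4.73, 7.45, 6.04 and 5.60, a mean of 5.96 ± 1.14 (SD, n = 4) or 62.0-fold. In the authors' log2 values the mean was 6.91 ± 0.82, or 120.2-fold. The probe was well above background in 8 of 8 channels of each tissue, so the blood level was low but measured.

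GZMA (LOC539093), the second granzyme A gene, gave 11.17, 14.61, 13.52 and 11.82 in endometrium and 8.75, 11.17, 10.64 and 10.66 in blood. Its log2 ratios were 2.42, 3.44, 2.88 and 1.16, with a mean of 2.48 ± 0.97 (SD, n = 4) and of 2.55 ± 0.99 in the authors' values. The endometrial value of animal 1 and the blood value of animal 2 were nearly equal, so the groups touched. GZMA thus had an endometrial excess in each animal like gzmA, but the log2 ratio of gzmA exceeded that of GZMA by 3.48 ± 0.95 (SD, n = 4).

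GZMK (LOC528871), a tryptase, was the exception among the 9 in not being well above background in every channel, with 6 of 8 in blood and 8 of 8 in endometrium. Endometrial cells had 7.01, 11.10, 7.88 and 7.59, and blood cells had 6.18, 7.26, 7.04 and 7.11. Animal 2 stood out, with a log2 ratio of 3.84, against 0.83, 0.84 and 0.48 in animals 1, 3 and 4. The mean was 1.50 ± 1.57 (SD, n = 4), a spread larger than the mean, and it was 0.72 without animal 2. In the authors' values animal 1 reached 3.96 and the mean was 2.73 ± 1.94, so the value of this probe depends on how signals near the background are treated.

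In the granzyme B group the probes named GZMB and GZMH had small ratios, and those of BDMD1 and LOC508646 larger ones. The GZMB probe had 7.77, 13.74, 11.15 and 10.20 in endometrium and 6.97, 11.83, 10.23 and 10.07 in blood, with a mean log2 ratio of 0.94 ± 0.73 (SD, n = 4). The GZMH probe had 9.69, 14.70, 12.34 and 11.51 in endometrium and 6.66, 12.61, 11.55 and 10.87 in blood, with a mean of 1.64 ± 1.13. The levels of both overlapped between tissues, and their spread between animals in endometrium was 2.47 and 2.08 (SD). Within animals the ratio of each probe was above 0 in 4 of 4. Although assigned to the same gene, the probes disagreed in animal 1, where GZMH had a ratio of 3.03 and GZMB one of 0.80. They were within 0.51 of each other in animals 2, 3 and 4.

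BDMD1 (NM_174296), which the reference table names GZMB, was bright in endometrium, at 14.26, 15.52, 14.64 and 14.04. In blood it had 8.34, 12.12, 11.43 and 13.65. The endometrial levels were thus close together and the blood levels ran from dim in animal 1 to nearly the endometrial level in animal 4. The log2 ratio was 5.91 in animal 1, 3.40 and 3.21 in animals 2 and 3 and 0.39 in animal 4, with a mean of 3.23 ± 2.26 (SD, n = 4). Without animal 1 it was 2.34 and without animal 4 it was 4.18. In the authors' values the mean was 3.35 ± 2.42.

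LOC508646, described in the files as a granzyme, had 13.30, 15.75, 14.85 and 12.41 in endometrium and 8.21, 10.72, 10.23 and 9.84 in blood. All 4 endometrial values were above all 4 blood values. The log2 ratios were 5.09, 5.03, 4.61 and 2.57, a mean of 4.33 ± 1.19 (SD, n = 4) or 20.1-fold, and 4.49 ± 1.27 in the authors' values. After gzmA it had the highest mean ratio of the 9 probes.

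PRF1, the pore-forming protein, had levels in blood close to those in endometrium in animals 3 and 4. Endometrial cells had 8.99, 13.92, 11.80 and 12.58 and blood cells had 7.01, 12.31, 11.83 and 12.11, so that only animals 1 and 2 had log2 ratios over 1, of 1.98 and 1.61. The ratio was -0.03 in animal 3 and 0.47 in animal 4, with a mean of 1.01 ± 0.94 (SD, n = 4), and of 0.68 without animal 1. PRF1 was the only 1 of the 9 with a ratio below 0 in any animal. Its mean log2 ratio in the authors' values was 1.19 ± 1.27. In the authors' log2 values the blood level of PRF1 was 7.64 in animal 1 and 14.04, 13.55 and 13.90 in animals 2, 3 and 4, a wider gap than as normalized here.

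NKG7 lay at 13.83, 15.11, 13.71 and 13.80 in endometrium and at 10.92, 12.94, 12.54 and 13.70 in blood. Its log2 ratios were 2.91, 2.16, 1.17 and 0.10, a mean of 1.59 ± 1.22 (SD, n = 4), and of 1.62 ± 1.21 in the authors' values. The lowest endometrial and the highest blood value, of animals 3 and 4, differed by 0.01. Like BDMD1, NKG7 had similar endometrial levels in animals 1, 3 and 4 and a ratio that followed the blood level.

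**Figure D2:**
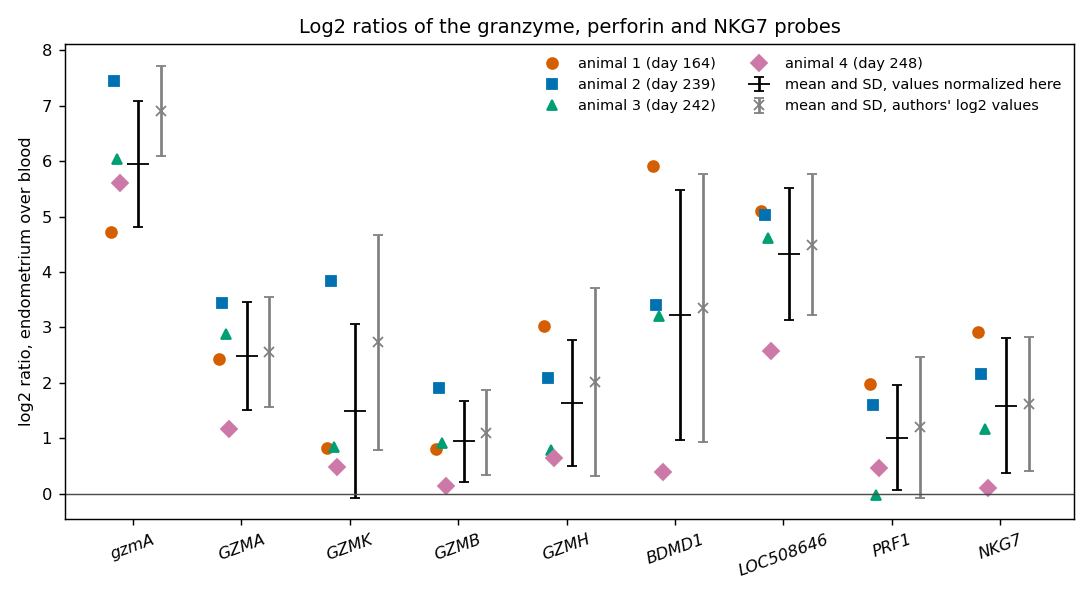
Log2 ratio of endometrium over blood (y axis) of each probe (x axis), with 1 symbol for each animal, and the mean with SD over 4 animals as normalized here (black) and in the authors' log2 values (gray). gzmA, LOC508646 and GZMA are the probes whose 4 ratios all exceed 1, and the gray mean is more than 1 above the black one for GZMK.

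Over the 9 probes, 8 had a log2 ratio above 0 in 4 of 4 animals, as had 10.2% of all probes tested. A mean fold over 2 towards endometrium was found for 8, against 8.15% of all probes, and endometrial levels all above the blood levels for 5, against 2.40%. In 2 of those 5, GZMA and NKG7, the margin was 0.0034 and 0.014. With a fold over 2 and a limma adjusted p no higher than 0.05, 0.0661% of all probes were called, 11 in number, and 0 with any of the 4 animals left out. The choice of these genes used this contrast, so nothing is read from the counts. The median log2 ratio was 1.64 over the 9 probes and -0.02 over all probes tested.

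Arrays and spots agreed more closely than animals did. The 2 arrays of an animal differed by a median of 0.12 in the log2 ratio over the 36 probe and animal pairs, against 0.11 for all probes. The SD over animals had a median of 1.14 for the 9 probes and of 0.68 for all probes. The largest difference between arrays was in animal 2 for LOC508646, 5.70 against 4.36, followed by BDMD1, 3.75 against 3.05, in the same animal. Duplicate spots of a probe differed by a median of 0.09 and at most by 0.46 in the log2 of the raw signal.

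The 9 probes shared some of their extremes among the animals. All 9 had their lowest blood level in animal 1, which was so for 40.4% of all probes, and all 9 had their highest endometrial level in animal 2, which was so for 24.7% of all probes. The lowest endometrial level was in animal 1 for 6 of them, in animal 3 for 1 and in animal 4 for 2, and the highest blood level was in animal 2 for 7 and in animal 4 for 2. The blood level of animal 1 was below the mean of animals 2, 3 and 4 by 5.08 for PRF1, 5.01 for GZMH, 4.06 for BDMD1 and 3.75 for GZMB on the log2 scale. For gzmA, already low in blood, the difference was 1.00. In the authors' log2 values its blood level was 6.52 in animal 1 and 8.87, 8.74 and 8.31 in the others. As for PRF1, that gap is wider than as normalized here. Summed levels of marker lists also set the blood of animal 1 apart. In endometrium the 9 probes had similar sums in animals 1 and 4, whereas T cell markers had not. A sum is carried by its brightest probes, and the median level of the 9 was lower in animal 1, at 11.17 against 12.41. For T cell markers these medians were 7.21 and 11.08. The summed intensity of the 9 probes in blood was 3510 in animal 1 and 31600, 19700 and 36400 in animals 2, 3 and 4, and in endometrium it was 50700, 258000, 105000 and 57900. That of 14 T cell markers in blood was 1980 in animal 1 and 54400, 27600 and 51200 in the others, and in endometrium it was 4820 against 90700, 40400 and 45800. That of 10 natural killer cell markers was 2780 in the blood of animal 1 against 17500, 6690 and 11200, and in endometrium 2180 against 26700, 5500 and 11300. That of 7 B cell markers was 6680 in the blood of animal 1 against 14800, 38600 and 23800, and in endometrium 4890 against 4970, 3300 and 16600. The lists of monocyte and macrophage markers went the other way, with 63800 in the blood of animal 1 against 2410, 3170 and 2030, and in endometrium 79200 against 8250, 28000 and 27000. The list of mast cell and granulocyte markers had 86500 in the blood of animal 1 and between 2500 and 3310 in the others. Most of that sum was S100A8, a calcium-binding protein of neutrophils and monocytes, with a log2 intensity of 16.18 there, against 11.07, 10.34 and 10.46. The median level of the list was 6.92 in the blood of animal 1 and 6.57 to 6.60 in the others. The part of these lists in the levels of the granzymes was not tested.

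**Figure D3:**
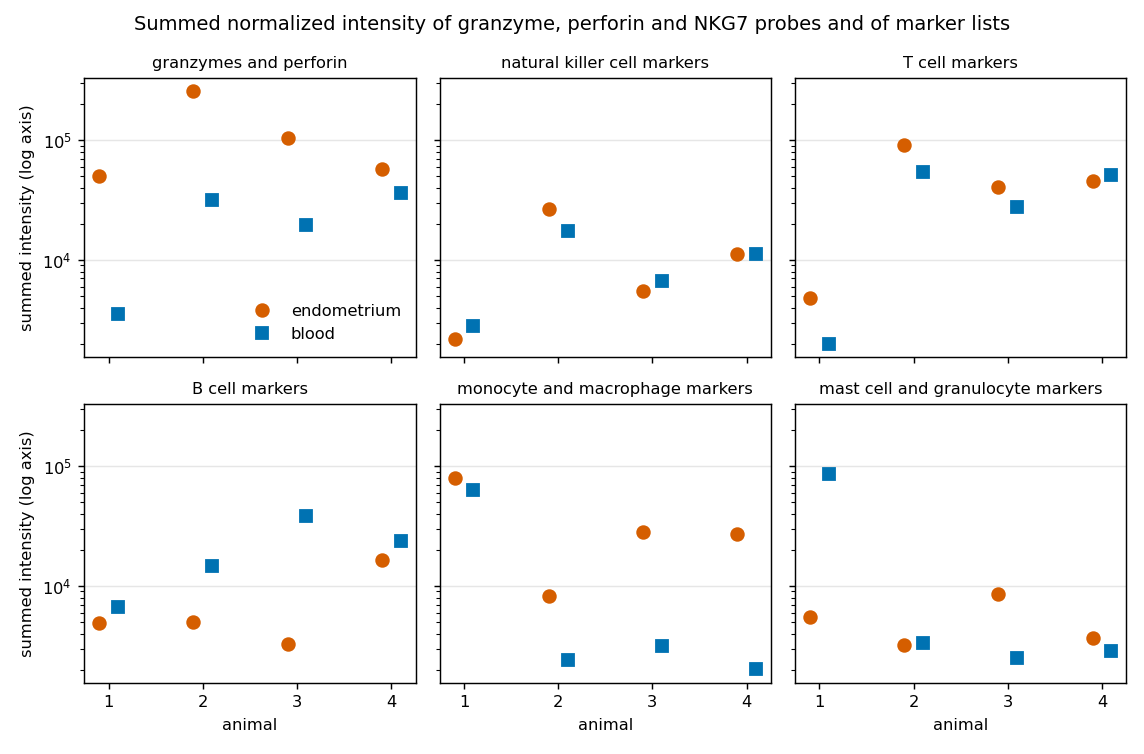
Summed normalized intensity (y axis, log scale) of the 9 granzyme, perforin and NKG7 probes and of 5 lists of cell type markers in each animal (x axis), endometrium as circles and blood as squares. Among blood samples that of animal 1 is lowest for the 9 probes and for T cell, B cell and natural killer cell markers. It is highest among them for monocyte and granulocyte markers.

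Marker lists of T cells and of natural killer cells had medians nearer 0 than that of the 9 probes. The 9 were chosen with this contrast known, so nothing is read from that difference. Of 14 T cell markers found and tested, 0 passed an adjusted p of 0.05 in either direction, and the median log2 ratio was -0.09, or 0.16 in the authors' values. CD7, an early marker of T and natural killer cells, had the highest, 3.09 (SE 0.65, limma adjusted p = 0.26), and CD2, an adhesion receptor, had 1.52 (SE 0.43). Every SE given for a list gene is limma's moderated one, which draws a probe's spread towards that of all probes. It can be larger or smaller than the plain SE over 4 animals. CD6, a surface receptor of T cells, had -1.50 (SE 0.74). Of 9 natural killer cell markers tested, 0 passed, and the median was 0.39. KLRB1, a lectin-like receptor, had 1.75 (SE 0.65) and KLRK1, the receptor NKG2D, had 0.83 (SE 0.32), with limma adjusted p of 0.307 and 0.321. NCR1, a defining receptor of natural killer cells, had -0.26 (SE 0.20) and was well above background in 8 of 8 endometrial and 7 of 8 blood channels. NCR3 had -1.35 (SE 0.63). In the T cell and natural killer lists 4 and 1 genes passed an unadjusted p of 0.05 with a fold over 2 towards endometrium and 0 towards blood, against 5.28% and 5.09% of all probes.

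Genes that work with the granzymes were mixed. Of 12 tested genes of granule contents and export 0 passed the adjusted p, with a median of -0.44. The proteases CTSW and CTSC, of which CTSC encodes cathepsin C that activates granzyme precursors, were highest, at 1.92 (SE 0.45) and 1.23 (SE 0.45), above 0 in 4 of 4 animals. Serglycin, SRGN, the proteoglycan that packs granule proteases, had -1.51 (SE 0.36) and the syntaxin STX11, needed for granule release, had -1.68 (SE 0.71), below 0 in 4 of 4 animals. The limma adjusted p of the 4 lay between 0.26 and 0.34. Of all probes tested 10.2% were above 0 and 14.7% below 0 in 4 of 4 animals. CTSW followed the granzymes in the blood of animal 1, with 6.99 against 12.48, 11.59 and 13.07 in the others. Of 5 tested relatives of the granzymes, such as complement factor D and the mast cell proteases, 0 passed, and their ratios ran from -0.07 for TPSB1 and TPSB2, which share a probe, to 0.27 for CFD. Their median was -0.05.

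Among 4 tested death ligands and effector cytokines 0 passed and the median was -0.23, from 0.79 (SE 0.56) for IFNG, interferon gamma, to -0.99 (SE 0.60) for LTA, lymphotoxin alpha. Of 4 tested serpins that inhibit granule proteases 0 passed and the median was 0.38. SERPINB6 had 0.75 (SE 0.29), SERPINB8 had 0.67 (SE 0.57), SERPINB1 had 0.09 (SE 0.30) and SERPINB4 had -1.77 (SE 1.00). The latter rested on the blood of animal 1, at 12.50 against at most 6.87 elsewhere. Of 13 tested substrates 0 passed, with a median of -0.17. PARP1 had 0.43, and the lowest were ANP32A with -0.78 and HMGB2 with -0.75.

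Of 8 tested transcription factors of cytotoxic genes 0 passed and the median was -0.62. ID2 had 0.35 (SE 0.32) and TBX21, which encodes T-bet, had 0.00 (SE 0.30), whereas STAT4 had -1.37 (SE 0.31) and PRDM1, encoding Blimp-1, had -1.57 (SE 0.50), both below 0 in 4 of 4 animals, as were 14.7% of all probes tested. Of 8 tested inducing cytokines and receptors 0 passed and the median was -0.14. IL18 had 1.05 (SE 0.34) and IL2RB 0.34 (SE 0.55), while IL12RB2 had -1.04 (SE 0.46) and IL2RA had -1.56 (SE 0.75). IL2 rose well above background in 0 channels.

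**Figure D4:**
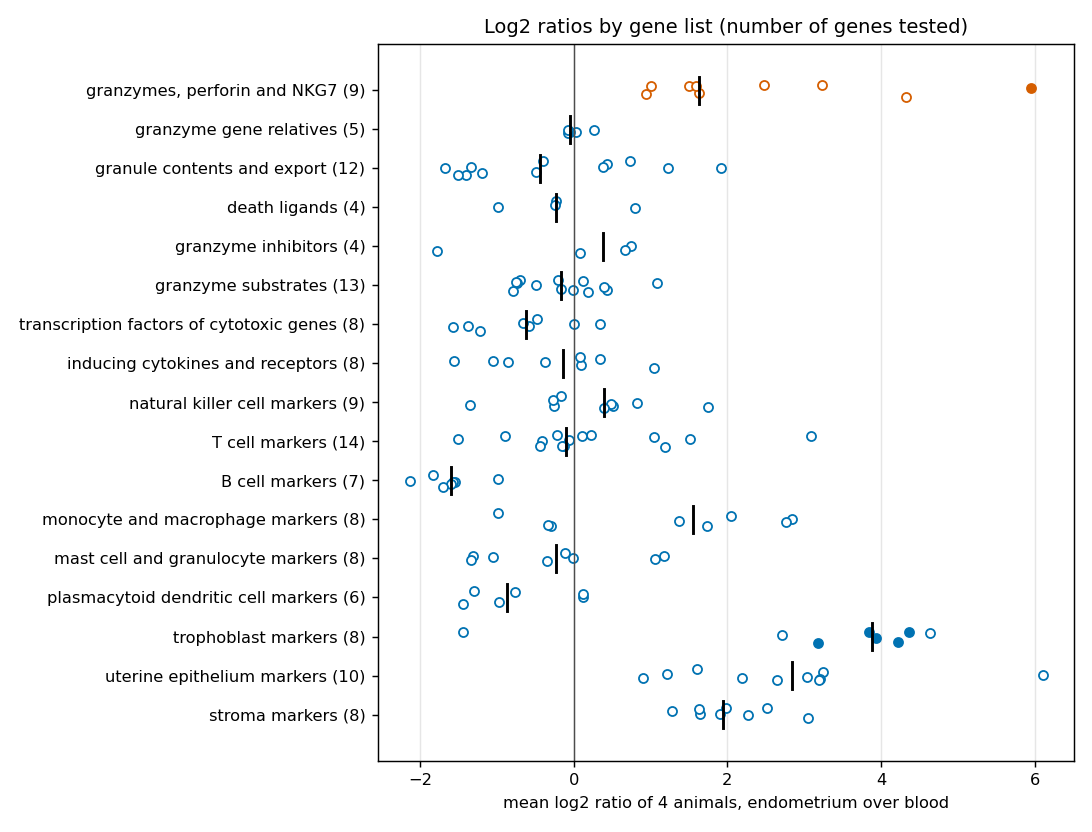
Mean log2 ratio of endometrium over blood (x axis) of each tested gene, by list, with the number tested in parentheses. Filled points passed a limma adjusted p of 0.05 and a fold over 2. The granzyme, perforin and NKG7 probes were chosen by this same contrast, so a filled point among them is not read as a test. Black bars are medians. The 7 lists from granzyme gene relatives to inducing cytokines have medians between -0.62 and 0.38, the trophoblast list one of 3.89.

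Lists of placental, epithelial and stromal cells, which the preparations could also hold, had higher medians. Of 8 trophoblast markers 5 passed, PRP6, PRP1, CSH1, PAG7 and PAG4, with log2 ratios from 3.17 to 4.36 and limma adjusted p between 0.0245 and 0.0274, and the list's median was 3.89. The study named most of these genes from the same samples, so their direction is not independent evidence. With animal 1, 2, 3 or 4 left out, 0 of the 8 passed. PAG10, a pregnancy-associated glycoprotein, had 4.64 (SE 0.43, limma adjusted p = 0.0717) and PAG1 had -1.44 (SE 0.46). PAG17 was well above background in 8 of 8 endometrial and 0 of 8 blood channels, with mean log2 intensities of 8.96 and 6.25, so its blood level is only a bound. Their summed intensity ran from 14700 to 48400 in endometrium and from 1340 to 3150 in blood. Uterine epithelium markers had a median of 2.84 over 10 genes, with 0 called and all 10 above 0 in 4 of 4 animals. SERPINA14, uterine serpin, had 6.10 (SE 0.51) and CLDN3 had 3.24 (SE 0.30), against 1.21 for CGN and 0.90 for CLDN4. The sum ran from 12200 to 112000 in endometrium and from 1220 to 3180 in blood. Stroma markers had a median of 1.94 over 8 tested genes with 0 called, and DCN, decorin, had 3.05 (SE 1.12) and COL1A1 had 2.51 (SE 0.90), while THY1 had 1.63 and LUM had 1.29. Their sum was 102000 in the endometrium of animal 1 and between 696 and 2900 in that of the others. The summed levels of the trophoblast, epithelial and stroma lists were higher in the endometrium of all 4 animals, as was gzmA. For stroma the difference was small in animal 2, at 696 against 661 in blood. The sum of monocyte and macrophage markers was also higher in the endometrium of all 4 animals. The part of these lists in the gzmA level was not tested.

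Monocyte and macrophage markers had a median of 1.55 over 8 tested genes, with 0 called. AIF1 had 2.85 (SE 0.82) and CSF1R 2.76 (SE 0.45), whereas CD14 had -0.33 (SE 0.48) and CD86 had -0.98 (SE 0.60). CD68 had 1.38 (SE 0.44), and LYZ rose well above background in 0 channels. B cell markers had a median of -1.60 over 7 genes with 0 called, from -0.99 for PAX5 and -1.55 for BLK to -1.83 for MS4A1 and -2.13 for CD22. Their sum ran from 3300 to 16600 in endometrium and from 6680 to 38600 in blood. Mast cell and granulocyte markers had a median of -0.23 over 8 tested genes with 0 called, from 1.17 for LTF and 1.06 for KIT to -1.30 for S100A8 and -1.34 for CSF3R. The mean of CSF3R rested on animal 1, at -4.81 against -0.19 to -0.16 in the others. Ratios of single animals ran from -4.18 to 2.21 for S100A8 and from 0.03 to 3.04 for LTF. Plasmacytoid dendritic cell markers had one of -0.87 over 6 genes with 0 called, from 0.12 for TLR7 and for TLR9 to -1.29 for SPIB and -1.44 for IRF8.

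The pattern of gzmA over the 8 tissue and animal means was compared with that of every other tested probe by Pearson's r, as a description over 8 points that share 4 animals. The most similar were PAG21 (r = 0.971), LOC613791 (0.961), LOC617822 (0.961), LOC508646 (0.957) and ZNF623 (0.946). LOC508646, a granzyme, was 4th of 16653 probes, GZMA was 50th with 0.899 and BDMD1 278th with 0.802. GZMB had 0.520 and PRF1 had 0.478. After each tissue's mean was subtracted, so that the mean contrast between tissues is removed, the most similar were CCNB1IP1 (0.972), CD7 (0.966), LOC613792 (0.966), BSPRY (0.965) and CNGB1 (0.965). GZMA (0.927), GZMB (0.920) and GZMK (0.895) were 49th, 55th and 109th, PRF1 had 0.769, NKG7 0.534 and BDMD1 0.429.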

How the data were processed

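The authors deposited Agilent scanner files (Feature Extraction 10.5.1.1 in the file headers, 9.5 in the submitters' processing notes), which hold the median intensity of each spot and its local background in each dye without normalization, and a processed intensity. Their value table holds log2 values, which the authors normalized by lowess within and quantiles between channels. Here median intensities were corrected with limma 3.58.1 (R 4.3.3) by normexp (offset 50), normalized by loess and by quantiles over 16 channels, and averaged over spots and arrays of an animal, leaving out control spots and 3 to 20 flagged spots an array. No spot was saturated. In each channel 65.2% to 82.9% of spots were well above background. A depth in reads does not apply, and the number of arrays limits precision.

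Log2 ratios within animals were tested against 0 with limma (Benjamini-Hochberg, 16654 probes). Animal numbers pair the samples, since both tissues came from the same cow (correlations of their deviations 0.21 to 0.62). Lists used the brightest probe of a gene. All genes searched were named, with CD14, CD68, called list genes and otherwise the 2 highest and 2 lowest of each list (of which 2 genes are not reported here), and the 5 probes most like gzmA by each measure. IL2 and LYZ, at background, were named after their values were seen. Members and lists were chosen with earlier results of these data known. Gene names came from a RefSeq gene table (ARS-UCD2.0). By accession 3519 probes were matched, by gene identifier 9987 and by gene name 297, and 7672 kept their name. Fits were tested on simulated data. Alternatives changed the background correction, normalization, filter, pairing, dye term, technical replicates, animals and test.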

Additional observations from a re-analysis of the deposited data

Results flagged for a closer look

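In a group of 4 animals a value was set apart when its gap to the nearest other exceeded Dixon's critical share of the group's range, and 3 of the 27 groups examined (9 probes in endometrium, in blood and as ratio) held such a value, where chance gives about 1 in 20. The log2 ratio of GZMK was 3.84 in animal 2, against 0.84 for the nearest and 0.48 for the farthest of the other animals. The blood level of PRF1 was 7.01 in animal 1, against 11.83 and 12.31. The endometrial level of NKG7 was 15.11 in animal 2, against 13.83 and 13.71. The PRF1 value belongs to the blood sample with the lowest summed T cell marker intensity, 1980, and the other values belong to the animal with the highest in endometrium, 90700, and a relation between them was not tested.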

How the results depend on the processing

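Over 108 alternative values of the 9 log2 ratios, 99 stayed within 1 SD of the animals and 9 did not, all 9 with the scanner files read as attached to their samples. Leaving out 1 of 4 animals cannot move a mean by 1 SD. Those alternatives could thus not fail this limit, and their place among the 99 says nothing of stability. Read so, the log2 ratio was -2.94 for gzmA, -1.03 for GZMA, -1.08 for GZMK, -0.48 for GZMB, -1.24 for GZMH, -1.63 for BDMD1, -2.02 for LOC508646, -1.02 for PRF1 and -1.0 for NKG7. Under the other alternatives, each of which kept the sign, it ran from 5.46 to 6.91 for gzmA, 2.16 to 2.92 for GZMA, 0.72 to 2.73 for GZMK, 0.62 to 1.42 for GZMB, 1.17 to 2.01 for GZMH, 2.34 to 4.18 for BDMD1, 4.07 to 4.91 for LOC508646, 0.68 to 1.38 for PRF1 and 1.14 to 2.08 for NKG7. Of all probes 11 were called higher in endometrium and 0 in blood. The count higher in endometrium was 204 with the authors' log2 values, 66 with an offset of 16, 203 with the scanner's processed signals, 5 without quantiles, 0 with median centring, 20 and 5 with only technical replicate 1 or 2, 0 with the files as attached, 3 without a filter, 43 with all 8 channels required and 457 with 8 arrays and a dye term. Without replicate 1, 2, 3 or 4 it was 0 to 0, with 522 to 1023 where the p was left unadjusted. Without the pairing (no replicate block) it was 4. The methods' analysis of variance gave 387 unadjusted (p no higher than 0.05) and 0 adjusted. Higher in blood were 20 with the authors' values and with the processed signals, 342 with 8 arrays and 299 by the analysis of variance unadjusted, and 0 otherwise, against 848 by limma at the unadjusted p. The causes were not tested. Of 272 list medians 255 moved by less than 1 SD of the animals. With the files as attached the medians of 9 lists turned, to -1.81 for trophoblast, -1.24 for stroma, -0.69 for epithelium, -0.49 for monocytes and macrophages, -0.17 for natural killer cells, 0.42 for mast cells and granulocytes, 0.25 for granule contents, 0.13 for granzyme relatives and 0.01 for transcription factors. Otherwise those that turned were between -0.23 and 0.39: T cell markers (0.01 with an offset of 16, 0.04 without quantiles, 0.16 with the authors' values and with the processed signals, 0.26 with median centring), substrates (0.07), death ligands (0.04) and granzyme relatives (0.25) with median centring, the latter also without quantiles (0.06), and with an animal left out natural killer markers (-0.11), inhibitors (-0.04), T cell markers (0.17), granzyme relatives (0.10 and 0.04) and mast cells (0.01). The authors' values moved the median of all probes from -0.02 to -0.14. The 5 trophoblast calls were 0 without any 1 animal, with median centring and with the files as attached, and with the authors' values 7 epithelial, 2 stroma (DCN and COL3A1) and 1 B cell gene (BLK, higher in blood) were called. With 8 arrays and a dye term the calls were 6 for epithelium, 3 for monocytes, 1 each for granule contents and T cells, and in blood 2 for transcription factors and 1 for B cells. In all 23 of 512 counts of list calls moved.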

Other observations

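Within the group, pairs of probes differed in how they followed each other over the 8 tissue and animal means once each tissue's mean had been subtracted. GZMB and GZMH had r = 0.971, GZMA and GZMB 0.960, BDMD1 and NKG7 0.959, and GZMH and PRF1 0.946, whereas gzmA and BDMD1 had 0.429. These are 8 points of 4 animals on shared arrays, and no test was made. The endometrial sum of the 9 probes exceeded the blood sum in each animal, at 50700 against 3510 in animal 1 and 57900 against 36400 in animal 4.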
